A study of Mus musculus with 12 samples.

Results

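A set of 43 genes of the hypoxia response and of glycolysis was followed through 12 RNA-seq libraries of MLE-12 cells, a mouse lung alveolar type II (AT II) line that came from a tumour of a mouse carrying the SV40 large T antigen. The genes were chosen by name, and all 43 were among the 34745 genes of the deposited table. There were 3 libraries in each of 4 groups. LPS cells were kept in 21% oxygen with 100 ng/mL lipopolysaccharide (LPS), and LPS + M2-Exo cells received 10 μg/mL M2-Exo in addition. Hyp cells were kept in 85% oxygen without LPS, and Hyp + M2-Exo cells received the same dose of M2-Exo. M2-Exo are exosomes from MH-S cells, an alveolar macrophage line, that had been treated with IL-4. All libraries were taken at 24 h, and no library came from untreated cells. The setting of Hyp against LPS therefore joins a higher oxygen level, the absence of LPS and whatever else differed between separately treated cultures, and these cannot be told apart.

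Cells sense oxygen through the hypoxia-inducible factors (HIFs), transcription factors made of an oxygen-labile alpha subunit (Hif1a, Epas1) and a stable partner (Arnt). When oxygen is plentiful, prolyl hydroxylases (Egln1, Egln2, Egln3) mark the alpha subunit, the von Hippel-Lindau protein (Vhl) binds the mark and the subunit is destroyed, while the asparaginyl hydroxylase Hif1an blocks its coactivators. This control acts on the protein, which RNA-seq does not measure. When oxygen is short, HIFs turn on glucose transporters, most enzymes of glycolysis, lactate export, and regulators of mitochondria, iron, vessels and matrix. Alveolar type II cells make surfactant, stand next to inhaled gas and serve as progenitors of the alveolar surface.

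HIFs bind the hypoxia response element, whose core letters are commonly written as ACGTG and in a second form as GCGTG, so the promoters are shown first. RefSeq windows (GRCm38.p6) of 300 bases, from 250 before to 50 after a gene's start, were found for 39 of the 43 members, with 58 windows in all. No window was found for Bnip3l, Epas1, Ndrg1 and Slc2a3. ACGTG, read on both strands, stood in 29 of the 58 windows (50%), beside 24.8% of the 12764 windows of genes tested in Hyp against LPS and 19.6% of all 32851 windows. GCGTG, also on both strands, stood in 31 windows of members (53.4%), beside 49.9% and 32.4%. Either was found in 44 windows (75.9%), beside 61% and 43.8%, and 34 of the 39 members had it in at least 1 window, as did 67% of the 10000 genes tested that have windows. Where a window reads CACGTG, the first motif is present on both strands and was counted on each. A match describes letters and does not show binding. Below, the stretch before the start that holds no annotated exon base is printed for 4 members that were lower in Hyp than in LPS (Slc16a3, Bnip3, Pdk1, Ldha) and 2 that were higher (Hk2, Slc16a1), with both motifs on either strand in capitals.
Slc16a3 (chr11:120948817-120949052, plus strand): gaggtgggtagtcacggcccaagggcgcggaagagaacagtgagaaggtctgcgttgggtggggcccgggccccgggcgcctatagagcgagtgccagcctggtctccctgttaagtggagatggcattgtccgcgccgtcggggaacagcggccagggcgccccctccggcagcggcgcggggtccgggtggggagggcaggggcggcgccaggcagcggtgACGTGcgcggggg
Bnip3 (chr7:138909520-138909756, minus strand): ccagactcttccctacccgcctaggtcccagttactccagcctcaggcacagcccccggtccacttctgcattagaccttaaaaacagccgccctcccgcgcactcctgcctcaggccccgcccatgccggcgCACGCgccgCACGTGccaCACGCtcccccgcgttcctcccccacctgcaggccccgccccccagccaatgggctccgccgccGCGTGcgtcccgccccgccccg
Pdk1 (chr2:71872974-71873223, plus strand): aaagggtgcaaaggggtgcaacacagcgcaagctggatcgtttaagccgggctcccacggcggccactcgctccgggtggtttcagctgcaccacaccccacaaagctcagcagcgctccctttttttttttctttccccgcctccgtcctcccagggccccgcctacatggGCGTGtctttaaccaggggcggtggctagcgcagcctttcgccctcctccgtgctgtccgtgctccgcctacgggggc
Ldha (chr7:46845554-46845803, plus strand): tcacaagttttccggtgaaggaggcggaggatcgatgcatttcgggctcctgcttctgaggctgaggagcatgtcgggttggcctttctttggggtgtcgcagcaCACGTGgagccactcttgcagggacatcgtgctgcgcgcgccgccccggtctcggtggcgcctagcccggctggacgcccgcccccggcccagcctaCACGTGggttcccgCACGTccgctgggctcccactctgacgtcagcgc
Hk2 (chr6:82774455-82774704, minus strand): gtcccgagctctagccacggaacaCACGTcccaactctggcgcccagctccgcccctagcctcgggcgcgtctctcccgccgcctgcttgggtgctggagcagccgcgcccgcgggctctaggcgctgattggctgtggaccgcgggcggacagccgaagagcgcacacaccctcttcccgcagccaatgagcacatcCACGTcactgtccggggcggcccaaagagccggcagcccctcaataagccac
Slc16a1 (chr3:104638414-104638663, plus strand): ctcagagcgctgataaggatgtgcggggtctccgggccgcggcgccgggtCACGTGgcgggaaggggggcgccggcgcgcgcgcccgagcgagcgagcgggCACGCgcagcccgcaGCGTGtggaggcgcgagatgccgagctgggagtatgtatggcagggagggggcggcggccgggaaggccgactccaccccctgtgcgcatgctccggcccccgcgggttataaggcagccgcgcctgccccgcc
Both strands together, the printed stretch held 1 match for Slc16a3, 5 for Bnip3, 1 for Pdk1, 5 for Ldha, 2 for Hk2 and 4 for Slc16a1. A further window, not printed, held 1 match before the start for Ldha and 0 for Pdk1. In the printed windows of Ldha and Slc16a1, the first 30 bases after the start do not lie in an annotated transcript of the gene. Members that fell and members that rose both had the letters: 22 of the 24 members with a window that were lower in Hyp, and 6 of the 8 that were higher, had at least 1 match in a window. Tpi1 and Gpi1 were lower, and Eno2 and Hif1an were higher, with no match in the window.

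Total counts ranged from 16021833 to 24074616 per library and were higher in the Hyp groups (20231632 or more) than in the LPS groups (19185116 or less). The share of counts on mitochondrial genes was 3.62% to 4.17% in the LPS groups and 2.62% to 2.92% in the Hyp groups. Of the markers of AT II cells, Sftpc and others were measured, whereas Sftpa1 and Sftpd did not pass 3 counts in any library. Summed over 10 AT II markers, the level in CPM (counts scaled to a common library total) was 428.6 to 445 in the LPS groups and 240.8 to 263.5 in the Hyp groups. Most of that sum was Abca3 and Nkx2-1, and of the 7 AT II markers tested in Hyp against LPS, 5 were lower and 2 were higher (Sftpb by 1.63 and Etv5 by 0.50 on the log2 scale). Among the lower, Napsa and Slc34a2 did not reach the minimum level of the filter on low counts in every Hyp library. The filter bears on their direction, so this count is a description. Summed over 14 macrophage markers, they were 461.7 to 512.8 in LPS, 369 to 419.1 in LPS + M2-Exo, 120 to 125.5 in Hyp and 92.72 to 138.3 in Hyp + M2-Exo; Arg1 and Chil3 did not pass 3 counts anywhere. In Hyp against LPS, 10 of the 12 macrophage markers tested were lower and 1 was higher, beside 37.8% and 38% of all genes tested. Itgax was the higher marker, at 3 counts or fewer in every LPS library. Marco, among the lower, had 1 count or fewer in every Hyp library. Both passed the filter on low counts only through the group where they were high, so their direction was fixed in advance. Sums over markers of alveolar type I cells (357 to 402.9 CPM) and fibroblasts (769.5 to 836.6 CPM) in the LPS groups were likewise above those in the Hyp groups (165.5 to 256.9 and 328.8 to 358.8 CPM). Nearly all of the fibroblast sum was Dcn (778 to 800.6 CPM in LPS). In Hyp against LPS, 3 of the 5 fibroblast markers were lower, and Col1a2 and Col3a1 were not called. Of the 6 type I markers 4 were lower, and Aqp5 (log2 fold change 0.16) and Cav1 (-0.47) were not called. The 5 endothelial markers did not move together. Their sum was 22.59 to 26.93 CPM in the LPS groups and 5.735 to 8.049 CPM in the Hyp groups because nearly all of it in LPS was Tek, which fell by 2.66, whereas Pecam1 and Kdr, at 7 counts or fewer in every LPS library and past the filter only through the Hyp libraries, were higher in Hyp by 2.72 and 2.62. Cdh5 and Cldn5 were at 3 counts or fewer. All 5 sums differed with the oxygen and LPS setting, and their part in the results below was not tested. Fewer cells of a type and less RNA per cell cannot be told apart in such libraries.

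The first question was how hypoxia-response and glycolysis genes differed between 85% oxygen and 21% oxygen with LPS. Most were lower in 85% oxygen. Of the 40 members that passed the filter on low counts, 26 were lower and 9 higher in Hyp than in LPS at a Benjamini-Hochberg adjusted p under 0.05 (edgeR quasi-likelihood test), 35 of 40 in all (87.5%). This comparison called 75.8% of the 13805 genes tested, 37.8% lower and 38% higher, so that being called was itself common, and the members differed from the table mainly in direction: 65% of them were lower and 22.5% higher. The median log2 fold change of the 40 members was -0.49, whereas that of all genes tested was 0.00906. A fall of at least 1 on the log2 scale was called for 11 members (27.5%), beside 13.7% of all genes, and a rise of at least 1 for 0 members, beside 10.2% of all genes. Egln3 passed the filter only through the LPS libraries and so had to be lower, and without it 25 of 39 members were lower (64.1%), 10 of them by at least 1 (25.6%). In the M2-Exo groups the same setting gave 25 lower and 8 higher members of 40, where 73.7% of 13660 genes were called, 36.5% lower and 37.1% higher. There 14 members fell by at least 1 (13.6% of all genes) and 0 rose by at least 1 (10.4% of all genes), and the median was -0.613. Without Egln3 and Epas1, which there passed the filter through 1 group only, 24 of 38 members were lower (63.2%) and 7 higher, and 13 fell by at least 1. The libraries of these 2 comparisons are separate, and 25 members were lower in both, 7 higher in both and 0 called in opposite directions. The 25 include Egln3, whose direction the filter had fixed in each comparison. How many of all genes were called in the same direction in both was not counted, so this agreement is not read as particular to the members. Across the 40 members the log2 fold changes of both comparisons correlated with a Pearson r of 0.977, and across 13535 genes with 0.952. These are correlations across genes, which are not independent replicates.

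**Figure D1:**
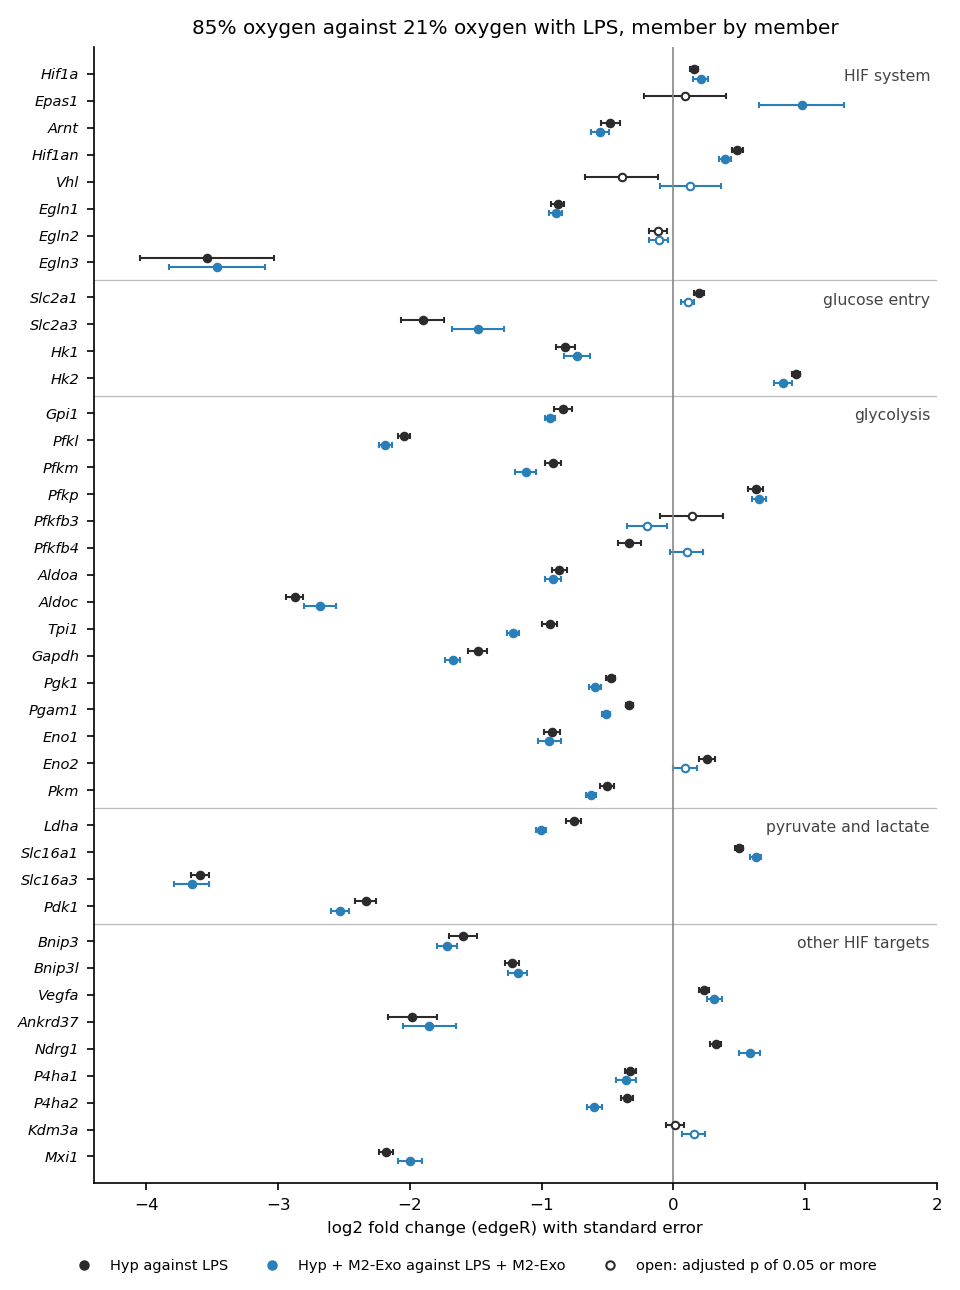
Log2 fold change (x axis) with its standard error of each of the 40 members tested (y axis, grouped by role) in Hyp against LPS (black) and Hyp + M2-Exo against LPS + M2-Exo (blue), filled where the adjusted p was under 0.05. Most points lie left of 0, down to -3.66 for Slc16a3, and the members right of 0 stay under 1.

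The oxygen-sensing system itself moved unevenly. Hif1a, the main alpha subunit, had CPM of 260.2, 259 and 246 in LPS and 286, 282 and 285 in Hyp. The groups did not overlap, and the rise was small (log2 fold change 0.16 ± 0.03 SE, adjusted p = 0.00165). Its partner Arnt had 90.5, 90.9 and 80.0 CPM in LPS and 66.5, 56.7 and 64.6 CPM in Hyp, a fall of 0.48 ± 0.07 on the log2 scale (adjusted p = 4.92e-04). Hif1an rose from 92.0 to 98.0 CPM in LPS to 129 to 138 CPM in Hyp (log2 fold change 0.49 ± 0.04, adjusted p = 1.29e-05). Epas1, the alpha subunit known from endothelium and alveolar type II cells, lay at 7 to 34 counts per library. It was called higher in the M2-Exo groups (log2 fold change 0.97 ± 0.33, adjusted p = 0.025), where it passed the filter only through the Hyp + M2-Exo libraries, and the call was lost with DESeq2 (adjusted p = 0.0976), with the replicate number as a block (0.0605) and when any of 3 single libraries was left out (0.0784 to 0.0941). It was not called without M2-Exo (0.09 ± 0.31, adjusted p = 0.803), and the change in this difference with M2-Exo did not pass the test (adjusted p = 0.569).

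Of the 3 prolyl hydroxylases, 2 are themselves known HIF targets, Egln1 and Egln3, and both were lower in Hyp. Egln1 had 147, 144 and 153 CPM in LPS and 81.8, 84.5 and 75.8 CPM in Hyp, with no overlap (log2 fold change -0.88 ± 0.05, adjusted p = 1.35e-06). Egln3 was scarce, with 41, 27 and 16 counts in LPS and 3, 4 and 2 counts in Hyp. It passed the filter on low counts only through the LPS libraries, and in Hyp + M2-Exo against Hyp it was not tested. The pooled count was 11.4 times higher in LPS than in Hyp per count sequenced, with a 95% exact interval of 5.73 to 25.8 that covers counting error only. Egln2 had 75.1 to 86.7 CPM in LPS and 70.3 to 78.5 CPM in Hyp, and these ranges overlapped (adjusted p = 0.149). Vhl varied within Hyp from 35.2 to 87.1 CPM and was not called (adjusted p = 0.23).

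Glucose entry was split between its members. Slc2a1, the common glucose transporter, had 76.0, 75.6 and 77.5 CPM in LPS and 88.5, 86.0 and 87.7 CPM in Hyp. The groups were apart, by 0.19 ± 0.04 on the log2 scale (adjusted p = 0.00148), and with M2-Exo the difference of 0.11 ± 0.05 was not called (adjusted p = 0.084). Slc2a3, a high-affinity glucose transporter known from neurons, was low and fell further, from 5.66, 6.51 and 5.50 CPM to 1.90, 1.45 and 1.36 CPM (log2 fold change -1.90 ± 0.16, adjusted p = 1.48e-05). Hexokinases trap glucose in the cell, and both isoenzymes moved in opposite directions. Hk1, the ubiquitous form, had 112, 111 and 118 CPM in LPS and 61.5, 59.8 and 72.1 CPM in Hyp. Hk2, the inducible form and a textbook HIF target, had 69.9, 69.3 and 68.3 CPM in LPS and 133, 131 and 133 CPM in Hyp. Hk2 had the largest rise among members called in Hyp against LPS (log2 fold change 0.93 ± 0.03, adjusted p = 1.22e-07), and 88.6% of all genes tested had a log2 fold change as low or lower.

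From the isomerase step to pyruvate, with the regulators Pfkfb3 and Pfkfb4 included, 12 of 15 members were lower in Hyp than in LPS (80%, beside 37.8% of all genes tested). Pfkp and Eno2 were higher (13.3%, beside 38%), and Pfkfb3 was not called. The lower members include Pfkfb4, whose call was lost in some alternatives given below. Summed over these 15 genes, the level was 4640 to 4932 CPM in LPS, 4987 to 5032 CPM in LPS + M2-Exo, 2957 to 3140 CPM in Hyp and 2865 to 3011 CPM in Hyp + M2-Exo. The Hyp and LPS groups were thus well apart in the sum, of which Pkm was the largest part.

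Phosphofructokinase sets the pace of glycolysis and is built from 3 kinds of subunit. Pfkl, the liver type, had 159, 158 and 167 CPM in LPS and 40.6, 37.1 and 39.9 CPM in Hyp, 4.12 times lower (log2 fold change -2.04 ± 0.05, adjusted p = 2.77e-08). Pfkm, the muscle type, had 79.1, 88.6 and 90.1 CPM in LPS and 44.9, 45.2 and 46.7 CPM in Hyp (log2 fold change -0.91 ± 0.06). Pfkp, the platelet type, moved the other way, from 74.3, 75.0 and 72.8 CPM to 117, 121 and 105 CPM (0.63 ± 0.05, adjusted p = 1.62e-05). On the opposite strand, Pitrm1 shares 5.58% of the exon bases of Pfkp and Senp1 shares 0.539% of those of Pfkm. Their own log2 fold changes in Hyp against LPS were 0.817 and 0.622, and without a stated strand setting the reads of such neighbours cannot be told apart. Gm26513, on the same strand, shares 10.2% of the exon bases of Pfkm, had a mean of 0.615 CPM in LPS and 1.52 CPM in Hyp, and could not be separated there by strand.

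Aldolase splits fructose bisphosphate. Aldoc, the brain type and a HIF target, had 58.0, 53.9 and 59.1 CPM in LPS and 7.73, 7.55 and 8.06 CPM in Hyp. This was 7.32 times lower, with each group tight (log2 fold change -2.87 ± 0.06, adjusted p = 2.74e-08). Aldoa, the main aldolase, fell by 0.86 ± 0.06 on the log2 scale, from 419 to 487 CPM to 244 to 258 CPM. Tpi1, triosephosphate isomerase, had 711, 732 and 746 CPM in LPS and 371, 356 and 415 CPM in Hyp (log2 fold change -0.94 ± 0.06).

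Gapdh, which oxidises glyceraldehyde 3-phosphate, had 70.7, 65.3 and 68.5 CPM in LPS and 24.3, 22.2 and 26.5 CPM in Hyp (log2 fold change -1.49 ± 0.07, adjusted p = 6.44e-07). Its level per length was low for this gene, 7.67 ± 0.3 FPKM (SD, n = 3; a deposited unit of fragments scaled by gene length and library total) in LPS beside 179.5 FPKM for Tpi1. Of the 50-base words of Gapdh transcripts, 24.7% also occur in 218 other genes, most of them pseudogenes, so its level is uncertain. Of these genes 15 are in the deposited table, with counts equal to 60.4% of those of Gapdh. With 3 near-identical copies added, which held 3.11% of its counts, its log2 fold change was -1.46. Reads placed on the other sharing genes were not added. Eno1, the enolase of most tissues, fell by 0.92 ± 0.06, but its near copy Eno1b held 202% of its counts, and with the copy added the log2 fold change was -0.73. Eno2, the neuronal enolase, had 24.5, 23.8 and 24.4 CPM in LPS and 28.0, 30.7 and 28.0 CPM in Hyp (0.25 ± 0.06, adjusted p = 0.00526). It was not called with M2-Exo (0.09 ± 0.09, adjusted p = 0.381). Pgk1, Pgam1 and Pkm, the enzymes of the later steps with high levels, fell by less: 0.48 ± 0.04, 0.33 ± 0.03 and 0.50 ± 0.05 on the log2 scale. They share 53.9%, 36.2% and 25.8% of their 50-base words with other genes.

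Among the regulators of the fructose 2,6-bisphosphate level, Pfkfb3 overlapped between groups, with 18.6 to 27.7 CPM in LPS and 19.3 to 36.0 CPM in Hyp (adjusted p = 0.611). Pfkfb4 was called lower by 0.33 ± 0.09 (adjusted p = 0.00757), a call that was lost with limma on FPKM (adjusted p = 0.055 and 0.0627) and with M2-Exo as a term over all libraries (log2 fold change -0.12, adjusted p = 0.253). Between the M2-Exo groups it stood at 0.10 ± 0.13 (adjusted p = 0.481).

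**Figure D2:**
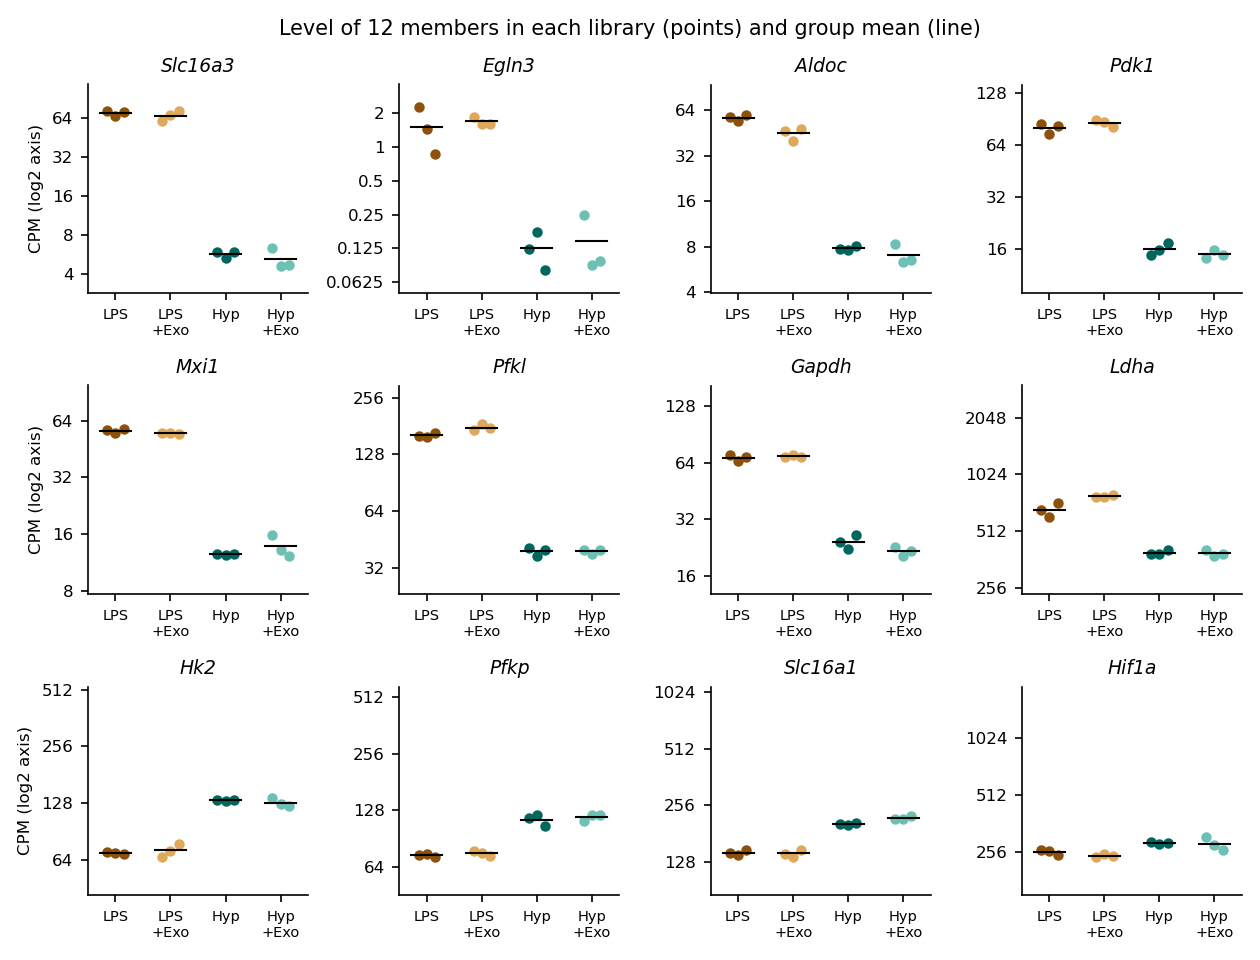
CPM of 12 members (y axes, log2 scale) in each of the 3 libraries of the 4 groups, with black lines for group means. Slc16a3 lies at 60.0 to 71.8 CPM in the LPS groups and at 4.60 to 6.38 CPM in the Hyp groups, while Hk2, Pfkp and Slc16a1 are higher in every Hyp library than in every LPS library.

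Lactate export showed the largest contrast between related members. Slc16a3, the low-affinity exporter of lactate from glycolytic cells and a HIF target, had 71.5, 66.0 and 70.1 CPM in LPS, 60.0, 67.2 and 71.8 CPM in LPS + M2-Exo, 5.91, 5.35 and 5.90 CPM in Hyp and 6.38, 4.60 and 4.74 CPM in Hyp + M2-Exo. It was 12.1 times lower in Hyp than in LPS (log2 fold change -3.59 ± 0.07, adjusted p = 1.63e-08) and 12.6 times lower with M2-Exo. Only 0.637% of genes tested in Hyp against LPS had a log2 fold change as low or lower. Slc16a1, the widely expressed transporter of the same family, had 143, 139.9 and 148 CPM in LPS and 203, 201 and 205 CPM in Hyp, a rise of 0.50 ± 0.03 (adjusted p = 3.34e-06).

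Ldha, which turns pyruvate into lactate, had 665, 610.3 and 721 CPM in LPS and 389, 386 and 406 CPM in Hyp (log2 fold change -0.76 ± 0.06, adjusted p = 9.27e-06). In the M2-Exo groups the fall was 1.01 ± 0.04. Ldhb was at 0 to 3 counts in every library and was not tested. Pdk1 inhibits pyruvate dehydrogenase and so keeps pyruvate out of mitochondria. It had 84.4, 74.3 and 82.2 CPM in LPS and 14.8, 15.8 and 17.2 CPM in Hyp, 5.05 times lower (log2 fold change -2.34 ± 0.08, adjusted p = 1.00e-07).

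Levels within isoenzyme families, compared per length as deposited FPKM, changed their make-up. Hk2 held 52.3% ± 1.13 (SD, n = 3) of the summed FPKM of Hk1 and Hk2 in LPS and 78.8% ± 1.63 in Hyp, while the sum rose from 18.7 to 25.3 FPKM. Pfkp held 9.11% ± 0.44 of phosphofructokinase FPKM in LPS and 29.1% ± 1.92 in Hyp, while Pfkl went from 48.4% ± 1.27 to 24.3% ± 1.11 and the sum fell from 66.4 to 34.2 FPKM. Slc16a3 held 19.6% ± 0.52 of the Slc16a1 and Slc16a3 sum in LPS and 1.40% ± 0.07 in Hyp. Aldoc went from 11.8% ± 0.31 to 3.20% ± 0.08 of aldolase FPKM. Enolase FPKM was mostly assigned to Eno1b, the near copy of Eno1, with 83.8% ± 0.45 in LPS and 85.0% ± 0.85 in Hyp of the sum of Eno1, Eno1b, Eno2, Eno3 and Eno4. Of that sum Eno2 held 0.878% ± 0.042 in LPS and 1.64% ± 0.07 in Hyp. Egln1 went from 62.7% ± 1.29 to 50.3% ± 2.70 of prolyl hydroxylase FPKM. For each of these shares other than that of Eno1b the ranges of the LPS and Hyp libraries did not overlap, and the same order held in the M2-Exo groups. Ldha held at least 99.9% of the summed FPKM of Ldha and Ldhb in every library. The shares of P4ha1 and P4ha2 stayed near each other, with P4ha1 at 59.0% ± 1.89 in LPS and 59.4% ± 0.81 in Hyp. These shares are descriptions and were not tested.

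**Figure D3:**
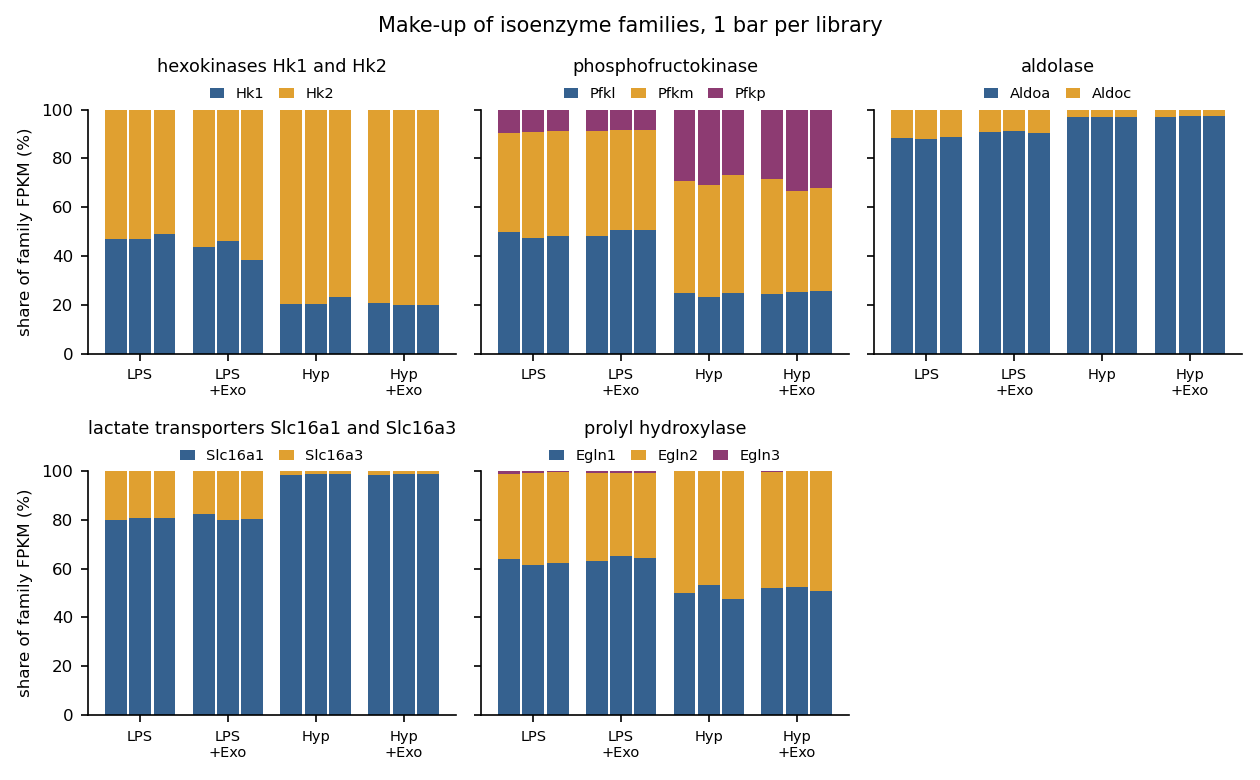
Share of the summed FPKM of the genes in each panel's key (y axis, percent) held by each of them in each of the 12 libraries (bars, grouped along the x axis), for 5 groups of related members. The Hk2 and Pfkp parts are wider in the Hyp groups (78.8% and 29.1% in Hyp) than in the LPS groups (52.3% and 9.11% in LPS), and the Slc16a3 part is nearly gone.

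Of the 11 other HIF targets among the members, 9 were tested, 6 were lower in Hyp (66.7%, beside 37.8% of all genes tested) and 2 higher (22.2%, beside 38%). Mxi1, an antagonist of Myc, had 57.2, 55.0 and 57.9 CPM in LPS and 12.5, 12.4 and 12.6 CPM in Hyp (log2 fold change -2.18 ± 0.05, adjusted p = 2.96e-08). Bnip3 and Bnip3l, receptors for the removal of mitochondria by autophagy, both fell. Bnip3 had 43.9, 39.9 and 35.8 CPM in LPS and 12.6, 15.0 and 12.0 CPM in Hyp (-1.60 ± 0.11), and Bnip3l fell by 1.22 ± 0.05, with its pseudogene Bnip3l-ps at 41.5% of its counts. With that copy added, the log2 fold change of Bnip3l was -1.19.

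Ankrd37, a small ankyrin repeat gene used as a readout of HIF activity, had 54 to 59 counts in LPS and 14 to 21 counts in Hyp (log2 fold change -1.98 ± 0.19, adjusted p = 2.58e-05). It shares 22.7% of its exon bases with Lrp2bp and 3.7% with Ufsp2, both on the opposite strand. Lrp2bp had a mean of 0.0542 CPM in LPS and 0.596 CPM in Hyp, and Ufsp2 had 53.3 and 62.2 CPM. Without a stated strand setting, reads of these neighbours cannot be told apart from those of Ankrd37. P4ha1 and P4ha2, prolyl hydroxylases of collagen, fell by 0.33 ± 0.04 and 0.35 ± 0.04.

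Vegfa, the vessel growth factor, and Ndrg1, a stress-response gene, went the other way. Vegfa had 141, 149 and 151 CPM in LPS and 177, 169 and 172 CPM in Hyp (0.23 ± 0.04, adjusted p = 7.09e-04), and Ndrg1 had 59.9, 62.4 and 60.6 CPM in LPS and 78.7, 75.2 and 74.9 CPM in Hyp (0.32 ± 0.04, adjusted p = 1.96e-04). Kdm3a, a histone demethylase, overlapped between groups (adjusted p = 0.889). Car9, a carbonic anhydrase widely used as a hypoxia marker, lay at 0 to 4 counts per library, and Adm, adrenomedullin, at 0 to 10. Neither passed the filter, and no fold is given.

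By level per length in LPS, the members ran from Pkm at 640.0 FPKM through Tpi1 at 179.5, Pgam1 at 172.7, Pgk1 at 146.7 and Ldha at 140.8 FPKM down to Ldhb, Car9 and Adm, all under 0.2 FPKM. Over the LPS libraries Pgk1 (141.4 to 150.3 FPKM) and Ldha (129.6 to 151.9 FPKM) overlapped, and Tpi1 (175.2 to 182.6 FPKM) lay just above Pgam1 (171.1 to 174.6 FPKM). In Hyp the order at the top was Pkm, Pgam1, Pgk1, Tpi1 and Ldha. Hif1a, at rank 10 in LPS with 35.7 FPKM, stood at rank 8 in Hyp with 42.3 FPKM, and Slc16a1 went from rank 12 to rank 6.

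Genes of the same pathways that were not members were taken from 4 lists. Of 21 other genes of glycolysis, glycogen and the pentose phosphate branch that were tested, 14 were lower (66.7%) and 6 higher (28.6%) in Hyp than in LPS, beside 37.8% and 38% of all genes tested. Some genes in these counts, and in those of the HIF regulators and HIF targets below, did not reach the filter's minimum level in every library of both groups. The filter bears on the direction of such genes, so these shares are descriptions. Hkdc1, a further hexokinase, had 3 to 11 counts in the LPS groups and 43 to 72 counts in the Hyp groups. It passed the filter without M2-Exo only through the Hyp libraries, so its log2 fold change of 2.81 ± 0.29 is a description. Hk3, the hexokinase of myeloid cells, fell by 1.94 ± 0.09. G6pdx, the entry enzyme of the pentose phosphate pathway, and Pgm2, a phosphoglucomutase, fell by 1.11 ± 0.03 and 0.89 ± 0.05. Of 16 other regulators of HIF, 8 were lower (50%) and 4 higher (25%). Arnt2, a relative of Arnt, fell by 2.13 ± 0.17, and Rack1 and Hsp90ab1, which act on the stability of the alpha subunit, fell by 0.80 ± 0.05 and 0.65 ± 0.04. Siah2, a ubiquitin ligase for the prolyl hydroxylases, rose by 0.81 ± 0.08.

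Of 35 HIF targets that were not members, 17 were higher (48.6%), 13 lower (37.1%) and 5 not called, shares that lay near those of all genes tested (38% and 37.8%). Nos2, inducible nitric oxide synthase and a gene known to respond to LPS in many cells, had 78 to 117 counts in LPS and 4 to 6 counts in Hyp (log2 fold change -4.64 ± 0.27). It passed the filter only through the LPS libraries, so that its difference is a description. Ak4, a mitochondrial adenylate kinase, had 13.1, 11.8 and 12.5 CPM in LPS and 0.868, 0.921 and 1.32 CPM in Hyp (-3.57 ± 0.15). Flt1, a receptor for Vegfa, moved the other way, from 11.6, 10.6 and 11.3 CPM to 73.2, 74.2 and 74.6 CPM (2.73 ± 0.06, adjusted p = 1.92e-08). Cxcr4, a chemokine receptor, had 6 to 14 counts in LPS and 37 to 62 counts in Hyp (2.06 ± 0.32), and it too passed only through the group where it was high. Of 18 other genes of pyruvate and lactate handling, 9 were higher (50%) and 5 lower (27.8%). Pdk2, a relative of Pdk1, fell by 1.56 ± 0.06, Gpd1, a glycerol phosphate dehydrogenase, fell by 0.74 ± 0.17, and Got1 and Mpc2, of the malate-aspartate shuttle and of pyruvate import into mitochondria, rose by 1.02 ± 0.11 and 0.76 ± 0.06. All 16 genes named from these lists were also called in the same direction between the M2-Exo groups. The 16 had been picked for their large differences in Hyp against LPS, and 73.7% of all genes were called between the M2-Exo groups. This agreement is therefore not read as particular to them. Between the M2-Exo groups too, Hkdc1, Nos2 and Cxcr4 passed the filter only through the group where they were high, so their agreement is a description. None of the 16 was called for M2-Exo in either injury by edgeR.

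The second question was whether M2-Exo moved these genes within an injury. In LPS + M2-Exo against LPS, 0 of 40 members were called (edgeR, adjusted p under 0.05), where 0.187% of 13353 genes were called. The smallest adjusted p was 0.205, for Aldoc. At an unadjusted p under 0.05 there were 11 members (27.5%), beside 11.1% of all genes, and the same 11 had libraries that did not overlap, beside 17.2% of all genes. They were Ldha, Pgk1, Pgam1, Pfkl, Tpi1 and P4ha2, with values above LPS, and Aldoc, Ndrg1, Pfkfb4, Slc2a3 and Hk1, with values below.

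Ldha had 665, 610.3 and 721 CPM in LPS and 778, 779 and 799 CPM in LPS + M2-Exo (log2 fold change 0.24 ± 0.06, adjusted p = 0.214). Aldoc had 58.0, 53.9 and 59.1 CPM in LPS and 46.9, 40.2 and 48.3 CPM in LPS + M2-Exo (-0.34 ± 0.08, adjusted p = 0.205). Both were called by the Wald test of DESeq2, which called 2 members in this comparison, beside 0.936% of 13353 genes. Pgk1 had 466, 443 and 475 CPM in LPS and 503, 507 and 543 CPM in LPS + M2-Exo (0.17 ± 0.04, adjusted p = 0.226). The differences of these members were small beside those between the injuries, and the macrophage marker sum also differed between the same groups, at a median log2 fold change of -0.306 over 11 markers tested with 0 called.

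In Hyp + M2-Exo against Hyp, 0 of 39 members were called by edgeR, where 0.101% of 13815 genes were called. DESeq2 also called 0 members, beside 0.268% of genes. At an unadjusted p under 0.05 there were 5 members (12.8%), beside 8.48% of all genes, and the same 5 had libraries that did not overlap, beside 16% of all genes: Slc16a1 with values above Hyp, and Tpi1, Gpi1, Pgam1 and Eno2 below. Slc16a1 had 203, 201 and 205 CPM in Hyp and 217, 218 and 224 CPM in Hyp + M2-Exo (0.11 ± 0.03, adjusted p = 0.544). Tpi1 had 371, 356 and 415 CPM in Hyp and 336, 318 and 345 CPM in Hyp + M2-Exo (-0.20 ± 0.06, adjusted p = 0.544).

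**Figure D4:**
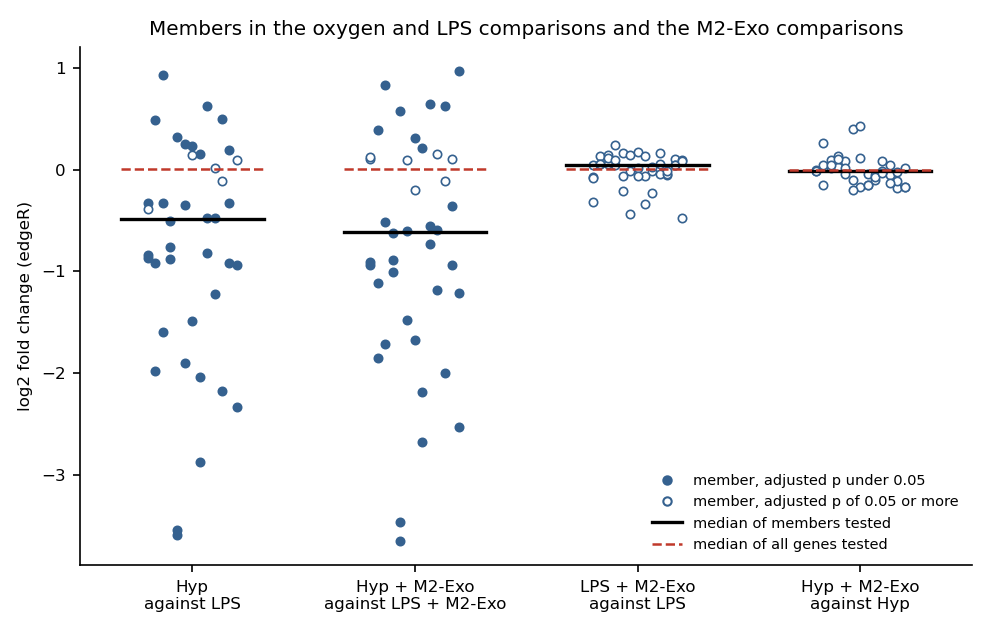
Log2 fold change (y axis) of the members tested in 4 comparisons (x axis), filled where the adjusted p was under 0.05, with the median of members (black) and of all genes tested (red, dashed). The members spread from -3.66 to 0.97 between injuries and from -0.48 to 0.43 for M2-Exo, where all points are open.

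Whether the difference between Hyp and LPS changed with M2-Exo was tested as an interaction over all 12 libraries. It passed for 0 of 40 members by edgeR (0.0352% of 14187 genes) and for 0 by DESeq2 (0.472% of genes). An unadjusted p under 0.05 by edgeR was found for 8 members (20%), beside 9.78% of all genes. These were Ldha, Ndrg1, P4ha2, Pfkfb4, Pfkl, Pgam1, Slc16a1 and Tpi1. The smallest unadjusted p was 6.57e-04 for Pgam1, with an adjusted p of 0.217, where the fall was 0.33 without and 0.51 with M2-Exo on the log2 scale. For Tpi1 the fall was 0.94 without and 1.22 with M2-Exo, a difference of -0.28 ± 0.08 (adjusted p = 0.281). This contrast shares its libraries with the M2-Exo comparisons above.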

How the data were processed

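RNA of 12 libraries of MLE-12 cells, 3 per group, was sequenced on a NovaSeq instrument after poly(A) selection, per the labels. The authors filtered reads with Seqtk and mapped them with HISAT2, and the submitters' processing notes name HISAT2 2.0.4, StringTie 1.3.0, edgeR and GRCm38. The counting program, its strand setting and the annotation are not given in the sources used here. The authors deposited raw counts per gene and FPKM. The deposited FPKM followed from the counts, gene length and library total to a relative 0.000733. The number of unmapped per-library columns was 0.

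Counts as deposited were tested with edgeR 4.0.16 in R 4.3.3 (filterByExpr, TMM scaling, quasi-likelihood F test) on the 6 libraries of each comparison, or on all 12 for the interaction. P-values were adjusted by Benjamini-Hochberg over all genes tested, and a gene was called at an adjusted p under 0.05. CPM are after TMM scaling, and errors of fold changes are standard errors. The fit was also run on simulated data in which few genes were changed. That setting is unlike the injury comparisons, where most genes were called. Nothing says whether replicates were separate cultures, so p-values measure the spread between these samples. A count of 0 allows up to 3 counts. Intervals cover counting error only.

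The members and lists were chosen with earlier results of these data known. All members could be named. Of the other pathway lists, up to 4 genes each were named, with the largest absolute log2 fold change among those called in Hyp against LPS, groups that do not overlap and, in the higher group, 50 counts or more on average. Promoters came from RefSeq (GRCm38.p6) and exons and shared 50-base words from GENCODE M21, which holds all 43 members.

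Alternatives were RLE scaling and library size alone, other filters, DESeq2 1.42.0, limma 3.58.1 on log2(FPKM + 1) and log2(FPKM + 0.1), all libraries in a fit, a replicate block, libraries thinned to the smallest, fold thresholds including the study's (unadjusted p under 0.05, absolute log2 fold change of at least 2), each library left out and, added after the data were seen, near-identical copies summed.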

Additional observations from a re-analysis of the deposited data

How the results depend on the processing

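At the same threshold, the count of members called in Hyp against LPS was 31 to 36 over 18 alternatives, with 22 to 27 lower and 9 higher, and in the M2-Exo groups 31 to 35 over 17, with 22 to 26 lower and 7 to 10 higher. These alternatives called 52.9% to 81.6% and 51.2% to 76.8% of all genes tested. With each library left out in turn, the count of members was 35 to 36 and 32 to 35. With a minimum log2 change of 1 in either direction, 11 and 14 of 40 members were left, beside 24% of all genes in each comparison. The study's threshold left 6 and 5, beside 7.68% and 7.2% of all genes. Of 100 results for single genes, 85 were tested in every alternative at the same threshold and 15, of genes at few counts or low FPKM, in 14 to 16 of them. All 100 had been chosen as called in the main fit. Those of Egln3, Hkdc1, Nos2, Cxcr4 and Epas1 passed the filter only through the group where they were high, so their agreement is a description. Wherever tested, 98 were called and 0 reversed. The exceptions were Pfkfb4 in Hyp against LPS, not called with limma on FPKM or with M2-Exo as a term over all libraries (adjusted p up to 0.253), and Epas1 in the M2-Exo groups, not called by DESeq2 (adjusted p = 0.0976), with the block (0.0605), or without LPS + M2-Exo replicate 1 or 3 or Hyp + M2-Exo replicate 1 (0.0784 to 0.0941). The cause was not tested.

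For M2-Exo and the interaction, 0 members were called in every alternative other than DESeq2 in LPS + M2-Exo against LPS, which called 2. The count over all genes was less stable: 25 as reported and 6 to 125 in LPS + M2-Exo against LPS, 14 and 2 to 37 in Hyp + M2-Exo against Hyp, and 5 and 3 to 67 for the interaction. Library size alone moved the higher share of calls from 50.2% to 56.1% in Hyp against LPS and from 50.4% to 56.4% in the M2-Exo groups. The median of all genes reached at most 0.111. Same-numbered libraries showed little shared deviation (correlations of -0.018 to 0.050). Whether equal numbers mark cultures handled together cannot be told from these correlations. With the replicate block 35 and 32 members were called in the injury comparisons and 0 in the others.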
